A study of Mus musculus with 60 samples.

Results

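Collagens are the main structural proteins of the extracellular matrix, and the collagen genes studied here were every gene of the deposited count table whose symbol is Col, a number, a and a number (for example Col4a1). The rule gave 44 genes of 47729 mouse genes. The tumor cells were PyMT-Bo1, a mammary cancer line of C57BL6 background that carries a luciferase, mApple, eGFP and the surface marker Thy1.1. The cells were stained with the membrane dye DiD and given by intracardiac injection to wild-type C57BL6/J female mice of 8 to 10 weeks, and a cell that does not divide keeps the dye. Single tumor cells were enriched by Thy1.1 and sorted 1 per well, with CD45-positive and dead cells gated out, from femur and tibia 11 days later, as 32 DiD+ cells (DiD intensity High, called dormant in the labels) and 28 DiD- cells (DiD intensity Low, called proliferative). All cells came from 1 transplanted cell line in a pool of 5 mice, and no mouse is named for a cell. Each group was therefore taken as 1 sample, no test between the groups was possible, and every difference below lacks a replicate check. Each DiD+ cell had between 2276789 and 7794219 counts on mouse genes, and each DiD- cell between 2624405 and 6199108.

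A collagen molecule is a triple helix of 3 chains, and many collagens need chains from different genes. Fibrillar collagens (types I, II, III, V and XI and their relatives) form the cable-like fibers of bone, skin and stroma. Type IV collagen forms the sheet of the basement membrane, and type VI forms beaded filaments beside cells. The multiplexin type XVIII is a basement membrane proteoglycan whose end fragment is endostatin. The FACIT collagens sit on the surface of fibrils, type VII forms anchoring fibrils, type VIII forms networks around vessels and in other tissues, and a few collagens such as type XVII cross the cell membrane. Type I collagen is the main protein of bone and is made there by osteoblasts.

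Gene starts are shown for the type IV pairs Col4a1 with Col4a2 and Col4a5 with Col4a6, since the genes of a pair lie head to head. They are also shown for Col18a1 and Col3a1, which lead the values below. The type IV pair Col4a3 and Col4a4, 71 bases apart on opposite strands, stayed under 1 CPM and is not shown. The windows are from RefSeq on GRCm38 and run from 250 bases before a gene's start to 50 bases after it, written 5′ to 3′ on the gene's strand. Capitals mark matches to 3 short promoter motifs, the TATA box (TATAAA), the CCAAT box (CCAAT) and the GC box (GGGCGG), each searched on both strands. A match on the other strand therefore reads ATTGG for the CCAAT box or CCGCCC for the GC box. Of the 44 collagens, 35 had a window.

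Col4a1 (chr8:11312777-11313076, minus strand): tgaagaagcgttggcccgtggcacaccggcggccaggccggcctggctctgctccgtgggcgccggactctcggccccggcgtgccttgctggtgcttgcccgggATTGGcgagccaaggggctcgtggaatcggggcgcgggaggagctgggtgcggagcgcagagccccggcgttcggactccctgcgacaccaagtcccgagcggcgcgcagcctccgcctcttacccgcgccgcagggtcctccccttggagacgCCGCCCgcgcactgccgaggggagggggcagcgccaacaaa
Col4a2 (chr8:11312555-11312854, plus strand): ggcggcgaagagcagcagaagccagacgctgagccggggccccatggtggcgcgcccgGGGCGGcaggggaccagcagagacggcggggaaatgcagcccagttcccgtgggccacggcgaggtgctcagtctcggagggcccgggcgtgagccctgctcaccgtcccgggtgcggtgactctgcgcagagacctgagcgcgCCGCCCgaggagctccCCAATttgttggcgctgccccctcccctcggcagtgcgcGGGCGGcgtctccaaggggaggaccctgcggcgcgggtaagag
Col4a5 (chrX:141475169-141475468, plus strand): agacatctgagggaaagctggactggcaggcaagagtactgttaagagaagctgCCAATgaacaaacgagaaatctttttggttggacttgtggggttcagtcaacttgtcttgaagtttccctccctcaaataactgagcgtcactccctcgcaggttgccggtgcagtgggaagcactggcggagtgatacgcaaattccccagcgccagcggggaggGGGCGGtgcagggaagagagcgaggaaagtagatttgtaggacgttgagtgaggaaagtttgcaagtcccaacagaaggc
Col4a6 (chrX:141474027-141474326, minus strand): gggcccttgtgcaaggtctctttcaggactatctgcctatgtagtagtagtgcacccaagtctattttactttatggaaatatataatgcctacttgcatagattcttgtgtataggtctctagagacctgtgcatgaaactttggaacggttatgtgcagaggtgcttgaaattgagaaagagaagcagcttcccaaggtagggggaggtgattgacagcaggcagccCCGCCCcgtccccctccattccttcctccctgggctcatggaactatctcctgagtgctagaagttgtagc
Col18a1, downstream start (chr10:77113656-77113955, minus strand): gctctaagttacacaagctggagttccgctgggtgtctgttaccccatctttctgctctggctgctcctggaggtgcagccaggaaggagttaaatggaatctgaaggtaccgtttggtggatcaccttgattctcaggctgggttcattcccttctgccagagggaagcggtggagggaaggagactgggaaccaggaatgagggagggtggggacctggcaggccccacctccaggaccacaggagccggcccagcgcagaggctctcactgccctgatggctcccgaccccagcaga
Col18a1, upstream start (chr10:77166481-77166780, minus strand): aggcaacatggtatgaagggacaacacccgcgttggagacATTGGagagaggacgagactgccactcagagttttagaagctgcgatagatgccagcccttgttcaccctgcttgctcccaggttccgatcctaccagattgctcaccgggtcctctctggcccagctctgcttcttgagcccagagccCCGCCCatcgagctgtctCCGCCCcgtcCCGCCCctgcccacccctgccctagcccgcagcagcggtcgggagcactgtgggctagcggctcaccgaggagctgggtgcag
Col3a1 (chr1:45311288-45311587, plus strand): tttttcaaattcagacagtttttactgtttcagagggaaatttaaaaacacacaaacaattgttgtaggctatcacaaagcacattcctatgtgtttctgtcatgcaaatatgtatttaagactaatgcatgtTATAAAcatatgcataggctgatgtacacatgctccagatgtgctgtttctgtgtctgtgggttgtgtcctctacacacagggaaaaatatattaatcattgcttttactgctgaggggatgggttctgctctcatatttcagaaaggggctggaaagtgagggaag

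The starts of Col4a1 and Col4a2 are 21 bases apart on opposite strands, and their windows share 78 bases. The starts of Col4a5 and Col4a6 are 1343 bases apart, also on opposite strands. Neither type IV pair shown nor Col18a1 had TATAAA in its windows, while Col3a1 had it once, at base 134 of the window. Col18a1 has a window at each of 2 RefSeq starts, and counts per gene cannot tell these starts apart. GGGCGG was found in 23 of the 38 collagen windows (60.5%) and in 35.7% of all 32851 RefSeq windows, CCAAT in 13 (34.2%) against 37.4%, and TATAAA in 5 (13.2%) against 13.6%. A match describes the letters only.

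Of the 44 collagens, 19 reached at least 1 CPM (counts per 1000000 counts on mouse genes) in a group, and 14 of these reached at least 10 CPM. Another 10 collagens had some counts but stayed under 1 CPM: Col1a2, Col4a3, Col4a4, Col6a4, Col8a2, Col11a2, Col22a1, Col25a1, Col27a1 and Col28a1. The remaining 15 had 0 counts in all 60 cells: Col2a1, Col6a5, Col6a6, Col9a1, Col9a2, Col9a3, Col10a1, Col11a1, Col13a1, Col15a1, Col19a1, Col20a1, Col23a1, Col24a1 and Col26a1. A count of 0 over a group allows up to 0.0205 CPM for the DiD+ group and 0.0251 CPM for the DiD- group (3 counts). In a single cell a count of 0 can be a missed transcript. A chain counted alone in a cell below is therefore not shown to be made alone. The genes with 0 counts include several of cartilage collagen: Col2a1, the 3 Col9 genes, Col10a1 and Col11a1. Col11a2, another type XI chain, had 77 counts, all in DiD- cell 45. A cell held counts for a median of 10 collagens in DiD+ (range 4 to 16) and 9 in DiD- (range 6 to 13), and these medians were the same after each cell was thinned to 2200000 counts, which left out 0 cells.

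**Figure D1:**
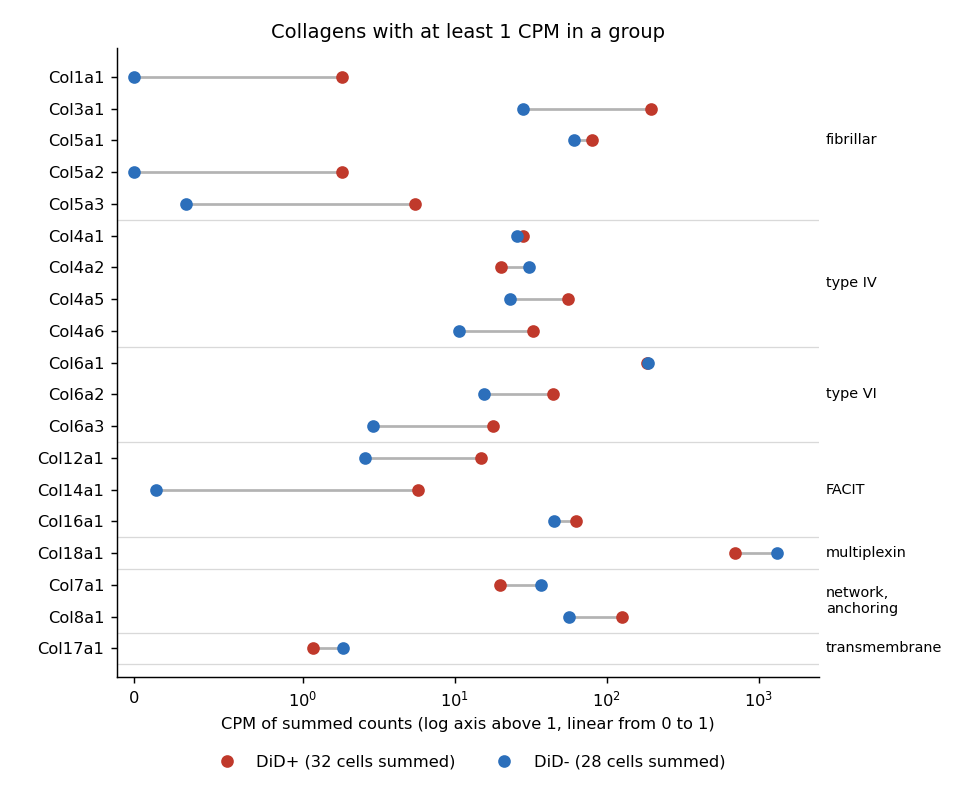
CPM of the summed counts of each group for the 19 collagens with at least 1 CPM in a group (red DiD+, blue DiD-; horizontal axis linear from 0 to 1 CPM and logarithmic above), sorted by class. Col18a1 is the highest in both groups, at 697 CPM in the DiD+ and 1332 CPM in the DiD- group, and 11 genes lie at least 2-fold to the right in DiD+.

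The basement membrane collagen gene Col18a1 was the highest collagen in both groups and lower in DiD+ cells, while the sum of the other collagens was higher in DiD+ cells. All collagens summed to 1602 CPM in DiD+ (exact Poisson 95% interval 1596 to 1609) and 1862 CPM in DiD- (1855 to 1870), for a log2 ratio of -0.22. Reads carried no molecular identifiers, so these intervals and the limits for 0 cover counting error only. Without Col18a1 the sums were 905 CPM and 530 CPM, for a log2 ratio of 0.77, and DiD+ cell 41 held 24.1% of that DiD+ sum. This ratio was 0.42 without cell 41 and 0.31 without cells 31 and 41, and the medians per cell were close, at 552 CPM and 517 CPM. Here and below the log2 ratio is DiD+ over DiD-, taken after adding 1 CPM to each level. Per cell, all collagens ranged from 68.2 to 7037 CPM in DiD+ (median 1204) and from 449 to 4220 CPM in DiD- (median 1654), so the groups overlapped over most of their range.

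Of the 19 collagens with at least 1 CPM, 11 were at least 2-fold higher in DiD+ and 0 at least 2-fold lower. Of all 12432 genes with at least 1 CPM, 12.1% were at least 2-fold higher and 4.86% at least 2-fold lower. At a minimum of 10 CPM the collagens had 7 of 14 at least 2-fold higher and 0 lower, against 6.38% and 3.18% of genes. The median log2 ratio over the 19 collagens was 1.25 (range -0.93 to 2.76, with 14 above 0), and over all 12432 genes it was 0.04 (quartiles -0.29 and 0.46). The 11 genes were Col1a1, Col3a1, Col4a5, Col4a6, Col5a2, Col5a3, Col6a2, Col6a3, Col8a1, Col12a1 and Col14a1.

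These counts rest in part on a few wells, which touch the results below. DiD+ cells 31 and 41 held 4.96% of the group's counts on mouse genes but were both among the 3 cells of their group with the most collagen. Without them (a choice made after the values were seen), 7 of 17 collagens stayed at least 2-fold higher, against 12% of genes, and 1 was at least 2-fold lower, against 4.87%. Scaling each cell by its spike-ins moved the median log2 ratio of all genes from 0.04 to -0.33 and left 9 collagens at least 2-fold higher. With that scaling Col18a1 (-1.17), Col4a2 (-1.17) and Col7a1 (-1.33) were at least 2-fold lower. The shares of all genes past 2-fold were not computed for it. Separately, 10 wells had at least 10 counts for at least 50% of the markers of a host blood cell type, called host-marker wells here: DiD+ cells 19, 21, 24, 29, 30, 37 and 88, and DiD- cells 44, 84 and 86. Macrophage markers reached that share in 6 DiD+ wells and 1 DiD- well, erythroid markers in 3 and 3, megakaryocyte markers in 1 and 0, and neutrophil markers in 0 and 1. Without the host-marker wells, 10 of 18 collagens were at least 2-fold higher in DiD+ (10.5% of genes) and 1 at least 2-fold lower (5.79%). The 7 genes above include Col14a1, with 99.6% of its DiD+ counts in host-marker wells. These 10 include Col1a1, Col5a2 and Col6a3, with 81.5%, 99.2% and 93.8% of their DiD+ counts in cells 31 and 41. The 2 sets of wells were not left out together. The sort gated out CD45-positive cells, and Ptprc, the gene of CD45, had at least 10 counts in 3 of these 10 wells (at most 121) and in 0 of the other 50. Luc2 had at least 10 counts in 9 of the 10 wells and Krt8 in all 10. The well without Luc2 was DiD+ cell 30, which also had 0 counts of mApple, eGFP and the PyMT oncogene sequence. It had 9970 counts of Krt8. At least 10 counts were found there for 10 of 13 macrophage and 7 of 7 erythroid markers. The paper reports transgene expression in all of its cells. Whether cell 30 held a tumor cell was not tested. The part of the host-marker wells in each result was not tested beyond leaving them out.

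The lists of stromal, osteoblast, chondrocyte, endothelial and pericyte markers did not reach 5 markers with at least 10 counts of the 10 in each list in any of the 60 cells. The largest number was 4 of 10, for stromal markers in DiD+ cells 31, 76 and 81 and DiD- cell 91, and for osteoblast markers in DiD+ cells 29 and 31. The epithelial check of the line was mixed: Krt8 had at least 10 counts in all 60 cells and Krt18 in 57, but Krt7, Krt19, Epcam and Cldn4 had 0 counts in every cell.

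**Figure D2:**
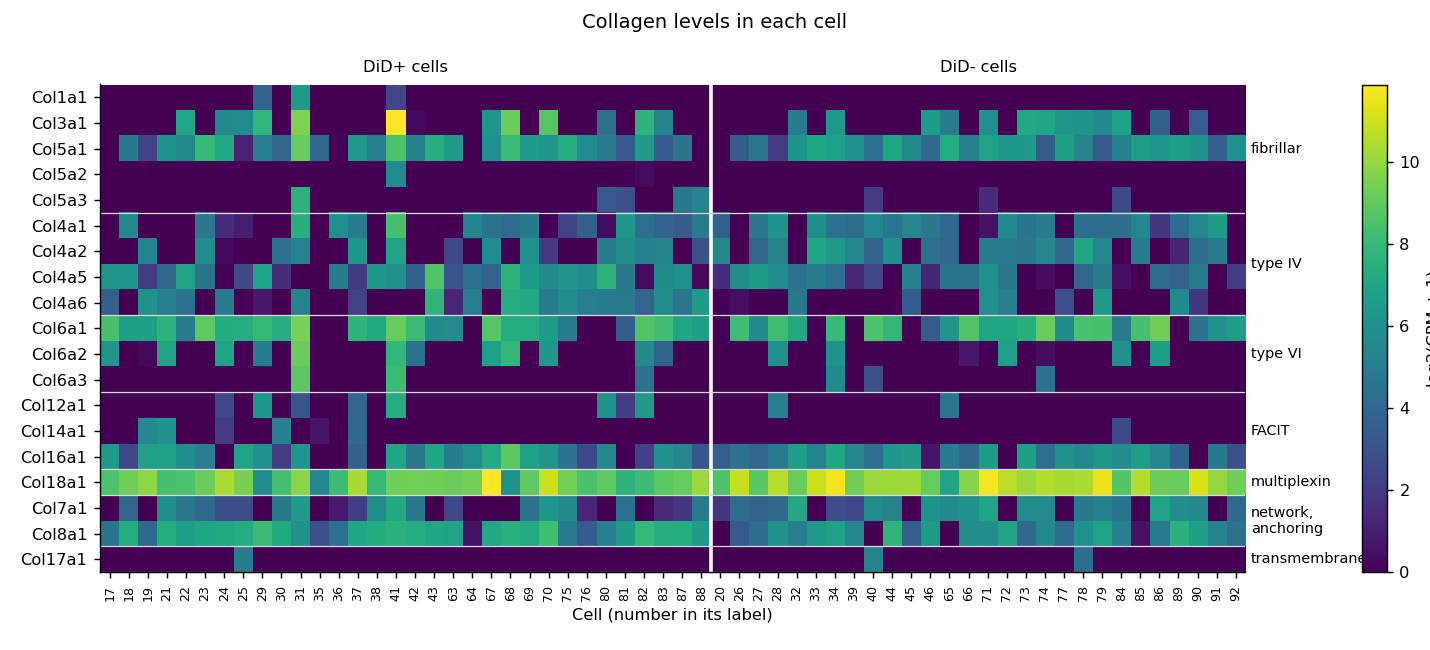
Heatmap of log2(CPM + 1) for the 19 collagens (rows, by class) in each of the 60 cells (columns, by the number in the cell's label, DiD+ left of the white line and DiD- right). Col18a1 runs across all 60 cells. Col3a1 peaks in DiD+ cell 41, and Col6a1, Col6a2 and Col6a3 peak in DiD+ cell 31. Col1a1, Col5a2, Col14a1 and Col17a1 are dark in nearly all cells.

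Col18a1 encodes the chain of type XVIII collagen (chr10:77052178-77166548, minus strand) and had counts in all 60 cells. Its level per cell ranged from 45.3 to 3800 CPM in DiD+ cells (median 559) and from 124 to 3378 CPM in DiD- cells (median 1127). The groups overlapped throughout, but the middle of the DiD- cells lay above that of the DiD+ cells. Summed, Col18a1 stood at 697 CPM in DiD+ (693 to 702) and 1332 CPM in DiD- (1326 to 1339), for a log2 ratio of -0.93. Leaving out 1 cell at a time kept the ratio between -1.21 (without cell 67, which held 20.4% of the DiD+ counts) and -0.84 (without cell 34). Without the host-marker wells, which held 25.4% of the DiD+ counts of Col18a1, it was -1.05.

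Col18a1 took 43.5% of all collagen counts in DiD+ and 71.5% in DiD- cells. Per cell its share had a median of 51.7% in DiD+ (range 2.91% to 80.9%) and 70.4% in DiD- (range 22.3% to 87.5%). Levels of different genes were compared per kilobase of exon. On that scale Col18a1 led the collagens at 99.3 CPM per kb in DiD+ and 190 in DiD-, followed in both groups by Col6a1 at 42.3 and 42.7. It was the leading collagen per kilobase in 23 of 32 DiD+ and 26 of 28 DiD- cells, and Col6a1 led in 7 and 1. The gene next below was Col3a1 in DiD+ (20.1 CPM per kb) and Col8a1 in DiD- (7.23), but without cells 31 and 41 it was Col8a1 in DiD+ too (16.01 CPM per kb, with Col3a1 at 6.18). In DiD- cells Col8a1 and Col5a1 (7.21 CPM per kb) were practically level.

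**Figure D3:**
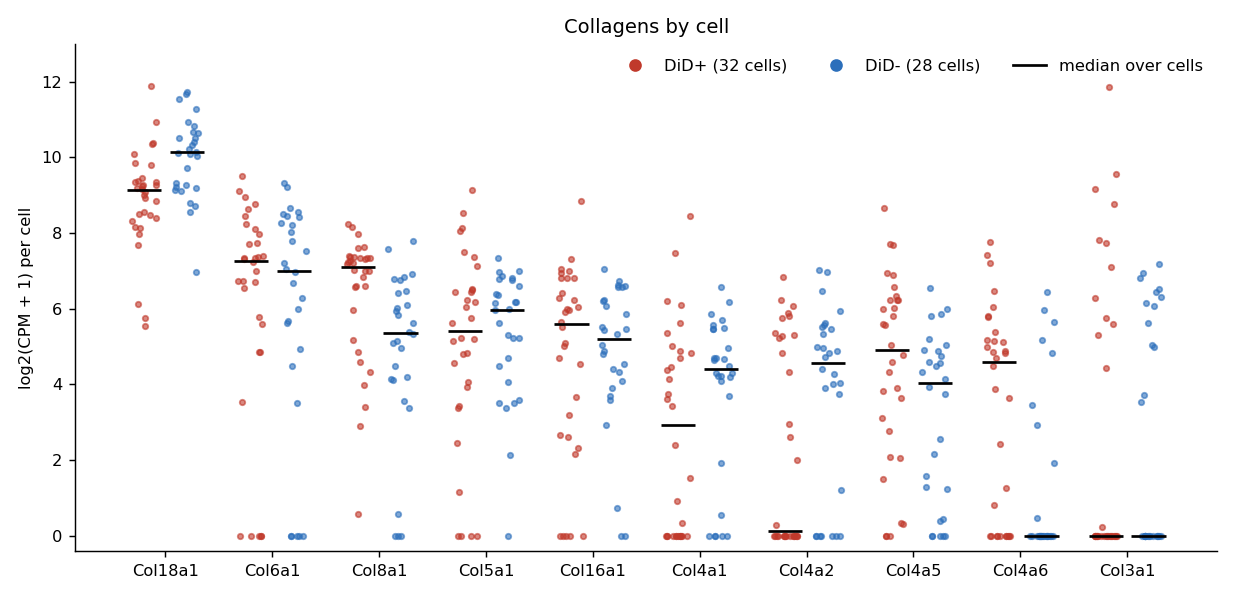
log2(CPM + 1) of 10 collagens in each cell (red DiD+, 32 cells; blue DiD-, 28 cells; black line, median over cells; points spread sideways for legibility). Col18a1 lies lower and Col8a1 higher in DiD+ with overlapping groups, and Col3a1 has a median of 0 in both groups with a few very high DiD+ cells.

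Among the 4 type IV chains that were measured above 10 CPM, the X-linked pair Col4a5 and Col4a6 was at least 2-fold higher in DiD+ cells, while Col4a1 and Col4a2 were within 2-fold. Col4a1 and Col4a2 together build the type IV network found in nearly all basement membranes. The Col4a5 and Col4a6 chains join in a second network, found in skin and around smooth muscle among others. Summed over the class, type IV stood at 138 CPM in DiD+ (136 to 140) and 90.3 CPM in DiD- (88.6 to 92.02), for a log2 ratio of 0.60.

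Col4a5 (chrX:141475385-141689234) ranged from 0 to 404 CPM in DiD+ cells (median 29.2) and from 0 to 92.9 CPM in DiD- cells (median 15.4), with counts in 29 of 32 and 23 of 28 cells. Summed, it stood at 56.1 CPM and 23.04 CPM, for a log2 ratio of 1.25. DiD+ cell 43, the highest, held 21.7% of the DiD+ counts, and without it the ratio was 0.95, under 2-fold.

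Col4a6 (chrX:141165403-141474076) ranged from 0 to 218 CPM in DiD+ (median 23.04) and from 0 to 86.3 CPM in DiD- (median 0). It had counts in 22 of 32 DiD+ cells (68.8%, exact Clopper-Pearson 95% interval 49.99% to 83.9%) and in 9 of 28 DiD- cells (32.1%, 15.9% to 52.4%), so that most DiD- cells were at 0. These intervals, here and for Col4a2 below, take cells as independent and hold no spread between mice. They do not compare the groups. The Col4a6 sums were 32.97 CPM and 10.8 CPM, for a log2 ratio of 1.53, and no single cell took the ratio under 1.26. Cell 43 was also the highest for Col4a6. Both stayed past 2-fold without cells 31 and 41 (log2 ratios of 1.26 for Col4a5 and 1.57 for Col4a6) and without the host-marker wells (1.43 and 1.42). With spike-in scaling Col4a5 fell under 2-fold (0.84) and Col4a6 stayed past it (1.29).

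Col4a1 (chr8:11198423-11312826) ranged from 0 to 347 CPM in DiD+ (median 7.07) and from 0 to 93.7 CPM in DiD- (median 20.3). Its sums of 28.1 CPM and 25.8 CPM gave a log2 ratio of 0.12, but cell 41 held 42.01% of the DiD+ counts, and without that cell the ratio was -0.58. It was 0.32 without the host-marker wells and -0.32 with spike-in scaling, so its direction was not stable. Col4a2 (chr8:11312805-11449287) ranged from 0 to 114 CPM in DiD+ (median 0.104) and from 0 to 130 CPM in DiD- (median 22.7). Its sums were 20.1 CPM and 30.7 CPM, for a log2 ratio of -0.59, with a range of -0.83 to -0.39 when 1 cell was left out. Counts for Col4a2 were found in 16 of 32 DiD+ cells (50%, 31.9% to 68.1%) and 21 of 28 DiD- cells (75%, 55.1% to 89.3%). The exons of Col4a1 and Col4a2 overlap by 22 bases on opposite strands, and whether the counting used strand is not given in the sources used here.

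The levels of the type IV chains were also set against each other across cells, as a description. Col4a1 and Col4a2 had counts together in 32 cells, Col4a1 alone in 11, Col4a2 alone in 5 and neither in 12, with a Spearman rho of 0.50 over the 60 cells. Col4a5 and Col4a6 had counts together in 28 cells, Col4a5 alone in 24, Col4a6 alone in 3 and neither in 5 (rho 0.31). Between the pairs, Col4a1 and Col4a5 had counts together in 37 cells (rho -0.13) and Col4a2 and Col4a6 in 18 (rho -0.12). Values of 1 cell share a library, and no p is given. Col4a3 and Col4a4, chains known from the kidney, were nearly absent, with 16 and 59 counts in DiD+ cells, each in 1 cell, and 0 in DiD- cells.

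Fibrillar collagens had the largest ratio between the groups of the 7 classes, but much of it sat in 1 well. The class stood at 287 CPM in DiD+ (284 to 289) and 90.8 CPM in DiD- (89.1 to 92.6), for a log2 ratio of 1.65. Cell 41 held 49.7% of the DiD+ counts of the class, followed by cells 31 and 68 in CPM (4183, 1617 and 850 CPM). The ratio was 0.71 without cell 41 and 0.46 without cells 31 and 41, below the ratios of the FACIT class (0.66) and of the network and anchoring class (0.57) without those cells. Per cell the medians were 64.1 CPM in DiD+ and 90.1 CPM in DiD-, so the ratio of the medians ran against the ratio of the sums.

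Col3a1 (chr1:45311538-45349706), the type III chain of reticular fibers, was at 0 in most cells of both groups, with counts in 13 of 32 DiD+ and 13 of 28 DiD- cells. It reached 3753 CPM in cell 41 and at most 144 CPM in a DiD- cell. Its sums were 197 CPM (195 to 200) and 28.3 CPM (27.4 to 29.3), the largest log2 ratio among the 19 collagens at 2.76. Cell 41 held 64.8% of the DiD+ counts. Without it the ratio was 1.32, and without cells 31 and 41 it was 1.07, at 60.7 CPM in DiD+. Without the host-marker wells it was 3.11.

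Col5a1, whose chain starts and regulates fibrils, was the most widely carried fibrillar gene, with counts in 28 of 32 and 27 of 28 cells. It ranged from 0 to 566 CPM in DiD+ (median 42.3) and from 0 to 162 CPM in DiD- (median 62.1), and its sums of 79.7 CPM and 61.2 CPM gave a log2 ratio of 0.38. Without cells 31 and 41 the groups were level (61.2 CPM in DiD+, log2 ratio 0.00). Its usual partner chain Col5a2 had counts in only 2 cells, both DiD+, and cell 41 held 99.2% of them. Col5a1 was therefore counted without Col5a2 in 53 of the 60 cells. Col5a2 lies 24614 bases from Col3a1 on chromosome 1, and both peaked in cell 41. Col5a3 stood at 5.45 CPM and 0.310 CPM (log2 ratio 2.30), and cell 31 held 59.2% of its DiD+ counts.

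Type I collagen, the main collagen of bone, was close to absent. Col1a1 had 265 counts in 3 DiD+ cells (193 in cell 31, 49 in cell 29 and 23 in cell 41) and 0 in DiD- cells, giving 1.81 CPM and a ratio of at least 72.3-fold against a limit of 3 counts over the DiD- cells. That bound covers counting error only and rests on these few cells. The log2 ratio of Col1a1 fell from 1.49 to 0.59 without cell 31. Its partner Col1a2 had 63 counts in 1 DiD+ cell and 41 counts in 2 DiD- cells. No cell had counts for both chains. Col5a2, also with 265 counts in DiD+ and 0 in DiD-, had the same bound of 72.3-fold, and its log2 ratio fell from 1.49 to 0.02 without cell 41. Both genes already lay above the median of the 19 collagens, so the bound leaves that median as it is by construction. Col1a1, Col5a2 and Col5a3 thus passed the 2-fold line on 2 to 5 DiD+ cells each.

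Cells 31 and 41 carried the tumor line's transgenes and also a few bone or stromal markers. Luc2 had 220 and 597 counts, mApple 49 and 402, and eGFP 98 and 155 in cells 31 and 41, and Ptprc, the pan-leukocyte gene, had 0 in both. Neither cell had a macrophage or erythroid marker with at least 10 counts. Krt8 had 572 and 1832 counts and Krt18 34 and 2. Dmp1, a gene of osteocytes, had 453 counts in cell 31 and 146 in cell 41. The osteoblast markers Bglap, Bglap2, Ibsp, Sp7 and Alpl were at 0 in both cells. Dcn had 108 counts in cell 31 and 0 in cell 41, and Pdgfra 0 and 450, while Lum and Prrx1 were at 0 in both. Postn, a matrix protein of periosteum and stroma, had 2030 and 10032 counts. The paper reports Postn as higher in DiD+ than in DiD- PyMT-Bo1 cells from both bone and lung. Whether these wells held 1 cell was not tested.

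Type VI collagen is built from the products of Col6a1, Col6a2 and Col6a3, and counts for Col6a1 without the other chains were the most frequent pattern. Per kilobase, Col6a2 stood at 5.35 CPM in DiD+ and 1.88 in DiD-, and Col6a3 at 1.48 and 0.242. Col6a1 stood at 42.3 and 42.7. The part of missed transcripts of the lower chains in this pattern was not tested. Col6a1 (chr10:76708792-76726168) ranged from 0 to 726 CPM in DiD+ (median 154) and from 0 to 643 CPM in DiD- (median 128), with counts in 27 of 32 and 23 of 28 cells. Its sums of 185 CPM (183 to 188) and 187 CPM (184 to 189) gave a log2 ratio of -0.01, and leaving out 1 cell kept it between -0.12 and 0.14.

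Col6a2 (chr10:76595762-76623630) ranged from 0 to 603 CPM in DiD+ and from 0 to 111 CPM in DiD-, with a median of 0 in both and counts in 13 and 7 cells. Its sums of 44.6 CPM and 15.7 CPM gave a log2 ratio of 1.45, which was 0.83 without cells 31 and 41. Col6a3 had counts in 3 cells of each group. Its sums of 17.8 CPM and 2.90 CPM gave a log2 ratio of 2.27, but cells 31 and 41 held 93.8% of the DiD+ counts, and without them the direction turned (1.15 CPM in DiD+, log2 ratio -0.86). Its large ratio was thus that of 2 wells.

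All 3 chains had counts in 3 DiD+ and 2 DiD- cells, Col6a1 alone in 14 and 15, and none in 5 and 5. Neither Col6a2 nor Col6a3 was ever counted without Col6a1 (20 cells had Col6a1 and Col6a2 together and 6 had Col6a1 and Col6a3). Over the 60 cells, rho was 0.52 for Col6a1 with Col6a2. Col6a2 was counted in 10 of the 13 DiD+ cells with Col3a1 (rho 0.69 over the 32 DiD+ cells) and in 4 of the 13 such DiD- cells (rho 0.16 over 28).

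**Figure D4:**
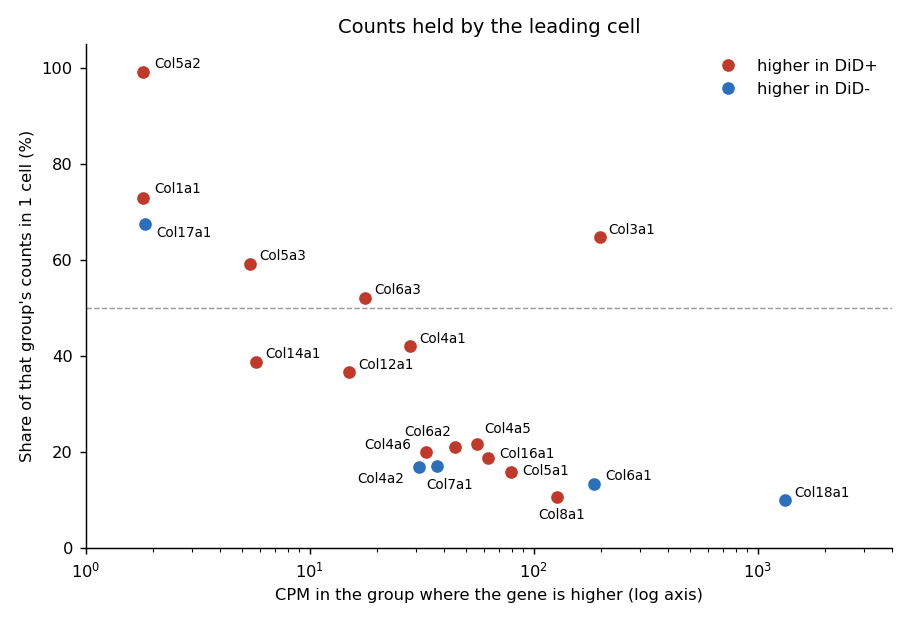
Share of a group's counts that the leading cell held (vertical axis, percent) against the level in that group (horizontal axis, CPM, logarithmic), for the group where each of the 19 collagens was higher (red DiD+, blue DiD-). The 6 genes above the dashed line at 50% are Col1a1, Col3a1, Col5a2, Col5a3, Col6a3 and Col17a1, and Col3a1 is the only one of them above 100 CPM.

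Col8a1 and Col16a1 were spread over nearly all cells. Col8a1, a short chain that forms hexagonal networks, was the collagen other than Col18a1 with counts in all 32 DiD+ cells, and it had counts in 25 of 28 DiD- cells. It ranged from 0.501 to 302 CPM in DiD+ (median 137) and from 0 to 221 CPM in DiD- (median 40.1), and most DiD+ cells lay above the DiD- median. Its sums were 127 CPM (125 to 129) and 56.6 CPM (55.3 to 58.0), for a log2 ratio of 1.15. The ratio stayed between 1.07 and 1.29 when 1 cell was left out, and was 1.13 without cells 31 and 41 and 1.18 without the host-marker wells, but spike-in scaling took it under 2-fold (0.74). Its leading cell held 10.6% of the DiD+ counts.

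Col7a1, the chain of the anchoring fibrils that fasten epithelium to stroma, ran the other way. It ranged from 0 to 148 CPM in DiD+ (median 5.58) and from 0 to 144 CPM in DiD- (median 24.3), with counts in 22 cells of each group. Its sums of 19.997 CPM and 37.2 CPM gave a log2 ratio of -0.86. Cell 41 was again the highest DiD+ cell with 25.2% of the counts, and without it the ratio was -1.21.

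Among the FACIT collagens, Col16a1 ranged from 0 to 464 CPM in DiD+ (median 47.1) and from 0 to 131 CPM in DiD- (median 35.7), with counts in 27 of 32 and 26 of 28 cells. Its sums of 62.7 CPM and 45.2 CPM gave a log2 ratio of 0.46, or 0.21 without cell 68. Col12a1, which bridges fibrils under tension, had counts in 8 DiD+ and 2 DiD- cells, with sums of 15.02 CPM and 2.58 CPM and a log2 ratio of 2.16. Cell 41 held 36.6% of its DiD+ counts, and the ratio was 1.61 without cells 31 and 41.

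Col14a1 was found in the wells with macrophage markers. It had counts in 6 DiD+ cells and 1 DiD- cell, at 5.76 CPM and 0.134 CPM, for a log2 ratio of 2.58. Cells 19, 21, 24, 30 and 37 held 245, 326, 16, 176 and 75 counts, and the DiD- cell was cell 84 with 16 counts. Each of these 6 wells had at least 50% of the macrophage markers, and the seventh such well, cell 88, had 0 counts of Col14a1. The only other cell with Col14a1 was cell 35, with 3 counts. Host-marker wells held 99.6% of the DiD+ counts of Col14a1 and 22.6% of all DiD+ counts, and without them the log2 ratio was 0.04.

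The transmembrane collagen Col17a1, part of the hemidesmosome, was counted in 3 cells only: 171 counts in DiD+ cell 25, 149 in DiD- cell 40 and 72 in DiD- cell 78. Its sums were 1.17 CPM and 1.85 CPM (log2 ratio -0.39), and the sign turned when DiD- cell 40 was left out (0.42). Of the 10 collagens with counts under 1 CPM, 8 had counts in 1 cell only, and Col1a2 had the most cells, 3 in all.

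At least 50% of the counts in the group with the higher level came from 1 cell for 6 of the 19 collagens, against 10.7% of all 12432 genes. The share depends on level. Among genes of 1 to 10 CPM, 34.2% were of this kind, and so were 4 of the 5 collagens in that range. Among genes of 10 to 100 CPM the figure was 1.33% with 1 of 10 collagens (Col6a3), and among genes of 100 CPM or more it was 0.582% with 1 of 4 (Col3a1).

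**Figure D5:**
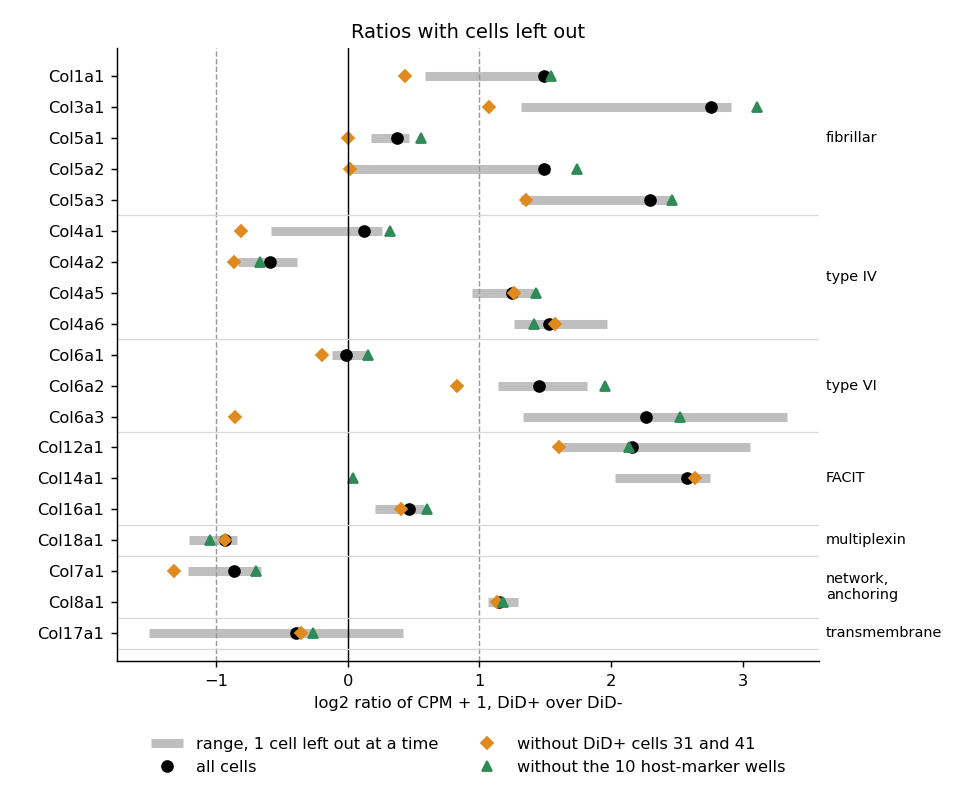
log2 ratio of DiD+ over DiD- (horizontal axis, after adding 1 CPM) for the 19 collagens with all cells (black), without DiD+ cells 31 and 41 (orange), without the 10 host-marker wells (green), and the range when 1 cell at a time was left out (grey bar; dashed lines, 2-fold). Col3a1, Col4a6, Col5a3, Col8a1 and Col12a1 stay right of the 2-fold line in every case shown, while Col6a3 crosses 0 without cells 31 and 41 and Col14a1 falls to 0.04 without the host-marker wells.

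Collagen chains are hydroxylated, folded, secreted, trimmed and crosslinked by dedicated proteins, and these were counted in lists chosen for their known roles. Of the 19 genes of chain modification and folding, 18 reached 1 CPM, with 11 higher and 7 lower in DiD+, and a median log2 ratio of 0.08. In it, 3 genes were at least 2-fold higher and 2 at least 2-fold lower, against 12.1% and 4.86% of all genes, which are also the shares to set beside the lists that follow. The genes past 2-fold that lie outside the naming rule are named here and below after their values were seen. Fkbp10 was counted in cell 41 alone of the DiD+ cells and turned to -0.60 without it, Creb3l1 had 57.6% of its counts in cell 19, and P3h2 was -0.33 without DiD- cell 32. The highest were P4hb, the protein disulfide isomerase that also serves prolyl hydroxylase, at 1287 CPM in the DiD+ and 1437 CPM in the DiD- group, and Ppib, a prolyl isomerase of the endoplasmic reticulum, at 446 and 417 CPM. The catalytic prolyl hydroxylase subunit P4ha3 stood at 4.69 CPM in the DiD+ and 31.3 CPM in the DiD- group (log2 ratio -2.51), with counts in 7 and 14 cells. Serpinh1, the chaperone that binds the collagen helix in the endoplasmic reticulum, had counts in only 2 DiD+ cells and 1 DiD- cell, with 61.6% of its DiD+ counts in cell 25.

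Of the 14 genes of procollagen processing and crosslinking, 10 reached 1 CPM, with 3 higher and 7 lower in DiD+, 1 past 2-fold in each direction and a median of -0.52. Both of these fell under 2-fold without 1 cell: Adamts2 to 0.89 without cell 31 and Loxl4 to -0.81 without DiD- cell 39. Loxl3, a lysyl oxidase relative, stood at 456 CPM in the DiD+ and 747 CPM in the DiD- group, and Pcolce, which speeds the removal of the procollagen end piece, at 737 and 580 CPM. Lox, the main lysyl oxidase, had 0 counts in all 60 cells and is likewise named after its values were seen.

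Of the 10 collagen receptors, 8 reached 1 CPM, with 5 higher and 3 lower, 3 at least 2-fold higher, 0 at least 2-fold lower and a median of 0.60. Of these, Lair1 had 74.9% of its DiD+ counts in host-marker cell 21 and was at 0.54 without it, and Itga1 was counted in 4 DiD+ cells. Mrc2, a receptor that takes up collagen, stood at 16.7 CPM in the DiD+ and 5.67 CPM in the DiD- group (log2 ratio 1.41). The integrin chain Itgb1 stood at 782 and 916 CPM, and the receptor kinase Ddr2 at 35.8 and 48.8 CPM. Of the 12 genes of collagen breakdown and its inhibitors, 9 reached 1 CPM, with 5 higher and 4 lower, 3 and 1 past 2-fold and a median of 0.15. Mmp2 had 88.6% of its DiD+ counts in cell 41 and turned to -0.50 without it, Mmp9 was at 0.70 without cell 42, Fap was counted in 2 DiD+ cells, and Ctsk was at -0.80 without DiD- cell 40. The inhibitor Timp2 led that list in both groups (1206 and 1363 CPM), followed by the inhibitor Timp1 in DiD+ (384 and 280 CPM) and by the membrane protease Mmp14, which lies outside the naming rule, in DiD- (358 and 322 CPM).

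Of the 16 basement membrane partners, 11 reached 1 CPM, with 6 higher and 5 lower, 1 past 2-fold in each direction and a median of 0.41. These were Lama4, counted in cell 41 only, and Lama3, counted in DiD- cell 84 only. Sparc, a collagen-binding matrix protein, stood at 1484 CPM in the DiD+ and 982 CPM in the DiD- group, and the laminin chain Lamb1 at 153 and 255 CPM. Cell 41 held 21.4% of the DiD+ counts of Sparc, whose log2 ratio of 0.60 was 0.30 without that cell. Nidogen gene Nid1 and the laminin genes Lama1 and Lama2 had 0 counts in all 60 cells, and are also named after their values were seen. For comparison, all 12 cycle genes were lower in DiD+, 3 of them at least 2-fold (Mcm3, Mcm6 and Top2a), with a median of -0.87. Over the 32 DiD+ cells, the Spearman rho of the summed cycle level with 11 collagens ran from -0.47 (Col4a5) to 0.23 (Col4a1), and over the 28 DiD- cells from -0.17 to 0.23, with Col4a5 at 0.15.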

How the data were processed

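Single-cell RNA-seq libraries of 32 DiD+ and 28 DiD- PyMT-Bo1 cells were analysed. The authors made cDNA with the SMARTer kit, aligned reads with STAR to GRCm38/mm10 extended by spike-ins and transgenes, and deposited RSEM estimated counts that were not normalized (96.6% of values whole), for each gene in each cell. They also deposited a BASiCS-normalized signal table, used here only as an alternative scaling. The sources name different sequencers and read lengths (NextSeq500 in the labels, HiSeq in the methods), which was left unresolved. Annotation release and strand use are not given in the sources used here. 0 value columns were unused.

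Rounded estimated counts were added up within each group and scaled by that group's total on mouse genes (146074944 in DiD+, 119490098 in DiD-), since no mouse is named per cell. The median total per cell was 4653711 in DiD+ and 4440161 in DiD-. Spike-ins and transgenes stayed out of totals. Poisson and Clopper-Pearson intervals are exact, at 95%. The Clopper-Pearson intervals take each cell as independent and hold no spread between mice. Symbols came from GENCODE M21 (47224 of 47729 IDs), as did positions and the union of exon bases behind each level per kb. Promoter windows came from RefSeq. The collagens, their classes, the pathway and marker lists and the naming rule were chosen with earlier results of these data known. Collagens of at least 10 CPM in a group were described, those of 1 to 10 CPM named with values, and the rest named. From each pathway list, genes of at least 10 CPM past 2-fold and the 2 highest were named, and any others are marked in the text. A marker was called present at 10 counts. Python 3.11.15 (numpy 2.4.6, pandas 2.3.3, scipy 1.17.1, matplotlib 3.10.9) and R 4.3.3 were used, and scaling factors came from edgeR 4.0.16 and DESeq2 1.42.0. On simulated counts for 47729 genes with 200 changed, all of at least 10 CPM, the simulated log2 ratio between DiD+ and DiD- was recovered to within 0.2 for 95% of these. The simulation drew Poisson counts from the same profile for all cells of a group. It held no spread between cells, so it checks the calculation and not how accurate the ratios of these data are. Alternatives were other scalings, pseudocounts and minimums, thinning, the longest transcript in place of the exon union, leaving out each cell, and leaving out groups of wells. Doublets were not called, and wells were kept in all sums unless stated.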

Additional observations from a re-analysis of the deposited data

How the results depend on the processing

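With 1 sample per group, these are values with no test. For all collagens (log2 ratio -0.22), the mean of per-cell CPM gave -0.16, scaling by spike-ins -0.56, TMM factors -0.24, DESeq2 factors -0.25, BASiCS values -0.21, leaving out the host-marker wells -0.19 and leaving out cells 31 and 41 -0.46. For fibrillar collagens (1.65), spike-ins gave 1.17, DESeq2 factors 1.61, BASiCS values 1.61, a pseudocount of 10 CPM 1.56, no host-marker wells 1.94 and no cells 31 and 41 0.46. For type IV (0.60), the mean of per-cell CPM gave 0.74, spike-ins 0.13, BASiCS 0.66, a pseudocount of 10 CPM 0.56, no host-marker wells 0.70 and no cells 31 and 41 0.43. For the median over collagens (1.25), the mean of per-cell CPM gave 1.41, spike-ins 0.84, BASiCS 1.40, a pseudocount of 10 CPM 0.40, no minimum 0.38, a minimum of 10 CPM 0.81 and no cells 31 and 41 0.40. Spike-in scaling moved the median of all genes to -0.33, from 0.04. Under it Col4a1 turned to -0.32, and Col18a1 (-1.17), Col4a2 (-1.17) and Col7a1 (-1.33) were at least 2-fold lower. The number at least 2-fold higher (11) was 7 without cells 31 and 41, 6 with a pseudocount of 10 CPM and 7 at a minimum of 10 CPM. The number with at least 50% of the counts in 1 cell (6) was 16 with no minimum and 2 at a minimum of 10 CPM. No share of all genes was computed for a pseudocount of 10 CPM or for no minimum. The numbers under these settings therefore cannot be read as particular to collagens. Among all genes of 1 to 10 CPM, 34.2% already had at least 50% of the counts in 1 cell. Leaving out 1 cell at a time moved all collagens from -0.40 to -0.14, fibrillar from 0.71 (without cell 41) to 1.72, type IV from 0.44 to 0.69, the median from 1.15 to 1.39, the 2-fold number from 10 to 11, and the number with at least 50% in 1 cell from 4 (without cell 41) to 7. Without cells 31 and 41 the direction turned for Col6a3 (2.27 to -0.86), Col4a1 (0.12 to -0.81) and the sum of type VI collagens (0.27 to -0.09). Without the host-marker wells Col6a1 went from -0.01 to 0.15. Beyond the settings that name wells or scalings, the cause of a shift was not tested. No paired analysis was possible because the cells carry no number that joins the groups and no test was run. Genes near 0.0251 CPM cannot be compared at this depth.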

Other observations

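Values of some genes other than collagens stood out in the wells described above and were looked at after the collagen values were seen. Postn, a stromal and bone matrix protein, is also among the genes that the paper reports as higher in DiD+ tumor cells. It had 9339 to 10682 counts in DiD+ cells 29, 41, 68 and 82, 2030 in DiD+ cell 31, and among the DiD- cells at most 753, in cell 34. Dmp1, a gene of osteocytes, reached 10 counts in 7 DiD+ wells, with 136 in cell 29, 45 in cell 30, 453 in cell 31, 146 in cell 41, 154 in cell 42, 217 in cell 63 and 3284 in cell 70, and in 0 DiD- wells. Phex, from the same marker list, reached 10 counts in 7 DiD+ wells and also in 4 DiD- wells. The share of all genes with a split like that of Dmp1 was not computed. The chaperone Serpinh1 sat in DiD+ cells 17 (366 counts) and 25 (587 counts), neither of which was among the 3 of all 60 cells with the most fibrillar, type IV or type VI collagen.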
